A study of Mus musculus with 8 samples.

Results

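The interaction of mineralocorticoid receptor deletion and corticosterone is the difference between the hormone responses of 2 genotypes of mouse macrophages. For each gene it is the log2 change with corticosterone in knockout cells minus the log2 change with corticosterone in control cells. A positive value means that the level with hormone, relative to that without, was higher in knockout cells. All 8 arrays of the study enter it, in 4 groups of 2, and it was computed for 18193 genes, each read by 1 probe set, the one brightest on average across all arrays. The question is whether deletion widens or narrows the hormone response.

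The cells were peritoneal macrophages of male C57BL6/J mice, drawn out by 3% thioglycolate given 4 days before collection and kept by adherence in medium with 10% FBS. Control cells carried 2 floxed alleles of the receptor gene (labelled MR fl / fl). Knockout cells carried the same alleles with LysM cre, a Cre recombinase under the promoter of the lysozyme gene Lyz2, which is active in myeloid cells, so any cells of other lineages in the cultures would keep the receptor gene. Each genotype stood for 24 h without hormone or with 1 µM corticosterone. Per the series' design text each sample was pooled from triplicate experiments, although titles call them biological replicates, so the p-values reflect only how far these samples differ, a spread that may be technical.

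The mineralocorticoid receptor, encoded by Nr3c2, and the glucocorticoid receptor, encoded by Nr3c1, are related nuclear receptors that share many DNA response elements. Corticosterone, the main glucocorticoid of mice, binds both, and the enzyme encoded by Hsd11b2, which inactivates corticosterone in aldosterone target epithelia, is low in most myeloid cells. In macrophages, glucocorticoids raise scavenger receptors and feedback regulators of their own signalling and restrain inflammatory genes. Myeloid deletion of the mineralocorticoid receptor has been studied in models of cardiac and vascular injury.

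The array labelled control untreated replicate 2 stood apart from the other 7. Its median correlation with the others was 0.916, against 0.995 to 0.996 for the rest, and its Actb 3′ minus 5′ difference, a sign of broken RNA when large, was 2.18 log2 units against 0.41 to 0.62. Replicates of the control untreated group differed by over 1 log2 unit at 4630 genes, against 3 to 76 genes in the other groups. Interactions of genes are therefore given without this array (7 arrays) and with it (8 arrays). Responses, SEs and counts in lists are from 7 arrays where 8 are not named. With 7 arrays every control response rests on 1 untreated control array, which is taken to vary as the other groups do, and the same array sets the untreated difference between genotypes. Csf1r, the CSF1 receptor of macrophages, lay at 13.52 to 13.59 log2 units on the 8 arrays, and Lyz2 at 13.58 to 13.78. The list of 16 macrophage identity markers averaged 11.78 on control untreated replicate 2, against 12.22 to 12.42 on the other arrays. Mesothelial and fibroblast markers averaged 8.81 on that array, against 6.72 to 7.19 on the others. The target gene Nr3c2 was dim: its 4 knockout arrays lay between 5.11 and 5.82. Control untreated replicate 2 read 8.46 and the other control arrays lay between 6.13 and 6.39. With 7 arrays the knockout minus control difference was -0.71 without hormone and -0.97 with it. Whether the Nr3c2 probe set reads the deleted part was not analysed here.

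The corticosterone responses of both genotypes were close in median size, and the interaction of 3 genes passed the threshold of an adjusted p of 0.05. With 7 arrays Chil3, a secreted chitinase-like protein, responded more strongly in knockout cells. F13a1, the A subunit of coagulation factor XIII, and Hp, the haemoglobin-binding protein haptoglobin, responded less in knockout cells. These 3 are 0.0165% of the genes tested, with 0.0055% higher and 0.011% lower. At an unadjusted p under 0.05 there were 1064 genes (5.85%), 450 higher and 614 lower. With 8 arrays no gene passed in limma (0%), and 199 genes (1.09%) had an unadjusted p under 0.05.

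Chil3 and F13a1 are shown here by the 300 bases around their starts, since both are among the 3 genes that passed with 7 arrays; the sequences are RefSeq's on GRCm38.p6, both from the minus strand, from 250 bases before the start to 50 after it. Chil3 lies at chr3:106147554-106167564 and its window at chr3:106167515-106167814. F13a1 lies at chr13:36867178-37050244 and the window of the outermost of its 2 listed starts at chr13:37050195-37050494. Capitals mark a match to the letters TATAAA, which in the Chil3 window lies across the listed start.
Chil3: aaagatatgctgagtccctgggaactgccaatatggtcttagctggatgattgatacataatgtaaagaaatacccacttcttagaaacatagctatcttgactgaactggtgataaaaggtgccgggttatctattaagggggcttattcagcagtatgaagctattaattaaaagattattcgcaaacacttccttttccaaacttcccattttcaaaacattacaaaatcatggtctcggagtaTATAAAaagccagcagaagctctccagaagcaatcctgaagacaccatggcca
F13a1: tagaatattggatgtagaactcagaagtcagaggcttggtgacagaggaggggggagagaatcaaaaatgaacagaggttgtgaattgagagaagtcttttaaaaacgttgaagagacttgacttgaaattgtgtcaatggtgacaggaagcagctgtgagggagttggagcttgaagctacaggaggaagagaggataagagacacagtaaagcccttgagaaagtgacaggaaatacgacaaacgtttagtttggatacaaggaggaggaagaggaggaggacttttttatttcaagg
Neither window holds AGAACA or its reverse complement TGTTCT, the core hexamer of the element that both receptors bind. Of 32851 promoter windows of this length, 19.0% hold the hexamer and 13.6% hold TATAAA, each on either strand. The Chil3 window holds 1 TATAAA and that of F13a1 none. Such a match is a description of letters and draws nothing about binding. Hp lies at chr8:109575128-109579172.

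Chil3 had the largest interaction of the 3. Without hormone its level was 8.34 and 8.04 log2 units in control cells and 6.39 and 6.12 in knockout cells. With corticosterone it was 11.46 and 11.50 in control cells and 12.31 and 12.32 in knockout cells. The knockout arrays thus lay below both control arrays without hormone and above both with it, and no 2 of the 4 groups overlapped. With 7 arrays the rise was 3.14 log2 units in control against 6.06 in knockout cells. The interaction was 2.92 (SE 0.12, 95% interval 2.64 to 3.20, limma adjusted p = 3.4e-05). The knockout minus control difference went from -2.09 without hormone to 0.84 with it. Chil3 was also the gene nearest to passing with 8 arrays, at 2.78 (SE 0.22, limma adjusted p = 0.424). With control untreated replicate 2 as the only untreated control array it was 2.63, where 10675 genes passed in all.

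Another probe set is annotated to both Chil3 and its near-identical neighbour Chil4, and so belongs to neither in the gene table. It read 7.03 and 6.84 in untreated control cells, 10.24 and 10.34 in treated control cells, 4.95 and 5.03 in untreated knockout cells and 11.29 and 11.41 in treated knockout cells. Its order of the 4 groups was that of Chil3. Its responses were 3.26 and 6.36 log2 units, and its interaction was 3.09 (SE 0.12, limma adjusted p = 1.7e-05 over all probe sets, 7 arrays). The probe set of Chil4 alone lay between 2.61 and 3.18 on the 8 arrays, at the low end of the scale, with an interaction of 0.20 with 7 arrays and 0.17 with 8 (limma adjusted p = 0.951 with 7). Chil3 was read by 1 probe set of its own, and whether its reads include Chil4 was not tested.

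F13a1 rose in both genotypes, by less in knockout cells. Its level without hormone was 8.15 and 8.95 in control cells and 10.26 and 10.31 in knockout cells. With corticosterone it was 10.61 and 10.56 in control cells and 11.78 and 11.73 in knockout cells. Untreated knockout cells were thus nearer to treated control cells (means of 10.29 and 10.59) than to untreated control cells. With 7 arrays the rise was 2.44 log2 units in control against 1.47 in knockout cells. The interaction was -0.97 (SE 0.07, 95% interval -1.12 to -0.82, limma adjusted p = 0.0011). The knockout cells stayed higher in both conditions, by 2.13 without hormone and 1.17 with it. With 8 arrays the interaction was -0.57 (SE 0.36, limma adjusted p = 0.719). With control untreated replicate 2 as the only untreated control array it was -0.16 (limma adjusted p = 0.0525), so most of its size rests on control untreated replicate 1.

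Hp responded in control cells with 7 arrays and had no response past the threshold in knockout cells. Its level without hormone was 8.40 and 7.27 in control cells and 10.50 and 10.44 in knockout cells. With corticosterone it was 9.25 and 9.21 in control cells and 10.40 and 10.48 in knockout cells. All 4 knockout arrays lay above all 4 control arrays, and the knockout groups overlapped with each other. The change was 0.83 log2 units in control and -0.03 in knockout cells, an interaction of -0.86 (SE 0.08, 95% interval -1.04 to -0.68, limma adjusted p = 0.0105, 7 arrays). The difference between genotypes was 2.07 without hormone and 1.21 with it. With 8 arrays the interaction was -1.42 (SE 0.50, limma adjusted p = 0.719), and with control untreated replicate 2 as the only untreated control array -1.99. The call of Hp was lost without control corticosterone replicate 1 (limma adjusted p = 0.249), control corticosterone replicate 2 (0.176) or knockout corticosterone replicate 1 (0.0887). All 3 calls were lost without the variance trend, which lets bright genes have a smaller prior variance (limma adjusted p = 0.164 for Chil3, 0.537 for F13a1 and 0.537 for Hp).

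**Figure D1:**
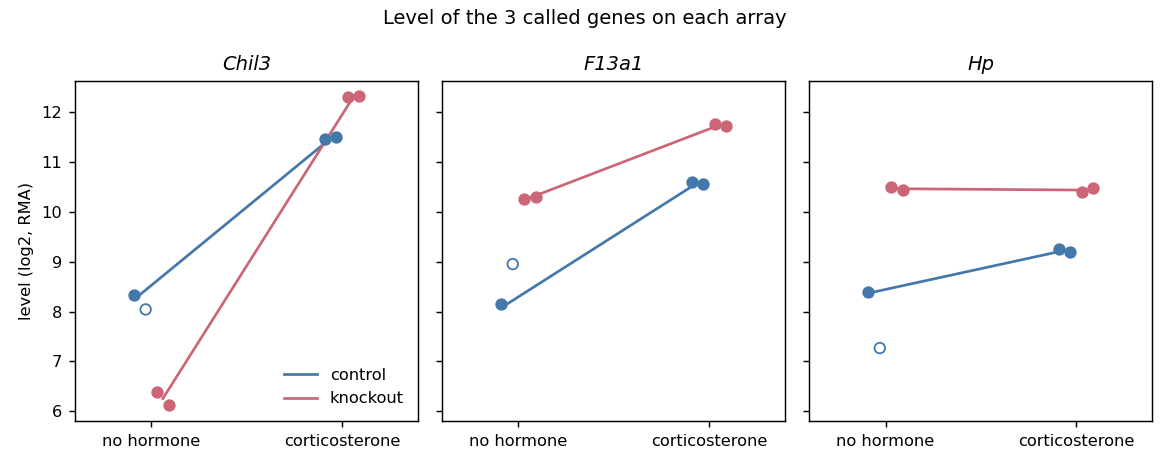
Level in log2 units (y axis) of Chil3, F13a1 and Hp without hormone and with corticosterone (x axis), 1 point per array; lines join group values, and the open point is control untreated replicate 2, left out of its line. The lines of Chil3 cross, with knockout cells lower without hormone (6.39 and 6.12) and higher with it (12.31 and 12.32), while those of F13a1 and Hp draw nearer.

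The size of the response was compared over genes that responded, chosen by a measure that is uncorrelated with the interaction: a mean of both genotypes' responses, weighted 0.6 for knockout and 0.4 for control cells with 7 arrays, with a limma adjusted p under 0.05. There were 3648 such genes (20.1%), 1579 induced (8.68%) and 2069 repressed (11.4%). By genotype, the response passed at 2493 genes (13.7%) in knockout and 1964 (10.8%) in control cells. The control response rests on 1 untreated array and has the larger SE, so these 2 counts do not compare response sizes. Over the 3648 responsive genes the median response size, without sign, was 0.279 log2 units in control cells and 0.275 in knockout cells. The median change in size, knockout minus control, was -0.00522, with an SD of 0.00813 and a range of -0.0181 to 0.00496 over choices of single arrays. Over all responsive genes that range spans 0, so a wider or narrower response in knockout cells was not larger than the spread between arrays. Of the responsive genes 1742 (47.8%) had the wider response in knockout cells, against 45.6% of all 18193 genes. By over 0.5 log2 units 64 were wider and 55 narrower, and 9 went opposite ways. The 95% interval of the interaction lay within 1 log2 unit of 0 for 3486 of the responsive genes (95.6%), against 92.9% of all genes. A 2-fold difference in response was thus outside the interval for most genes, responsive or not, if the lone untreated control array varies as the others do.

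Induced and repressed genes were looked at apart. The median change in size was -0.0114 for the 1579 induced genes, of which 45.2% were wider in knockout cells, and its range over single arrays, -0.0251 to -0.00679, lay below 0. It was -0.000744 for the 2069 repressed genes, of which 49.7% were wider, with a range of -0.0147 to 0.0181. Over all 18193 genes the median change was -0.0093 and 45.6% were wider, so the induced genes lay near the values of all genes. At an unadjusted p under 0.05, 50 induced genes were wider and 152 narrower, while 87 repressed genes were wider and 82 narrower. Over all genes 373 were wider and 691 narrower at that p, so narrower ones were also the more frequent there. Among the 100 genes most induced by the weighted mean response, taken from all genes, the median response was 1.51 in control and 1.49 in knockout cells, and 43 were wider. Among the 100 most repressed it was -1.35 and -1.44, and 59 were wider. Both counts stand against 45.6% wider over all genes. The medians of change were -0.0463 (range over single arrays -0.0856 to -0.0459) and 0.0468 (0.0298 to 0.128). By the median, strongly induced genes were narrower and strongly repressed genes wider, by amounts far smaller than the responses. The median interaction was -0.0463 and -0.0468, so both sets shifted slightly downward in knockout cells. Neither range holds 0. All these choices of arrays use control untreated replicate 1, so the ranges do not cover the variation of that array.

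With 8 arrays the same count could not be made with like precision. The median SE of an interaction was 0.283 log2 units, against 0.167 with 7 arrays, and 150 genes (0.824%) were responsive. Their median size was 1.12 in control and 1.17 in knockout cells, and the median of the gene by gene change was -0.0423 (SD 0.0229 over single arrays), with 66 wider (44%) and 13 each wider or narrower by over 0.5. Over all genes the median response size was 0.261 in control and 0.102 in knockout cells, and the median change was -0.141 with 25.7% wider. With that array as the only untreated control array 10675 genes passed for the interaction, against 3 with replicate 1 alone.

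**Figure D2:**
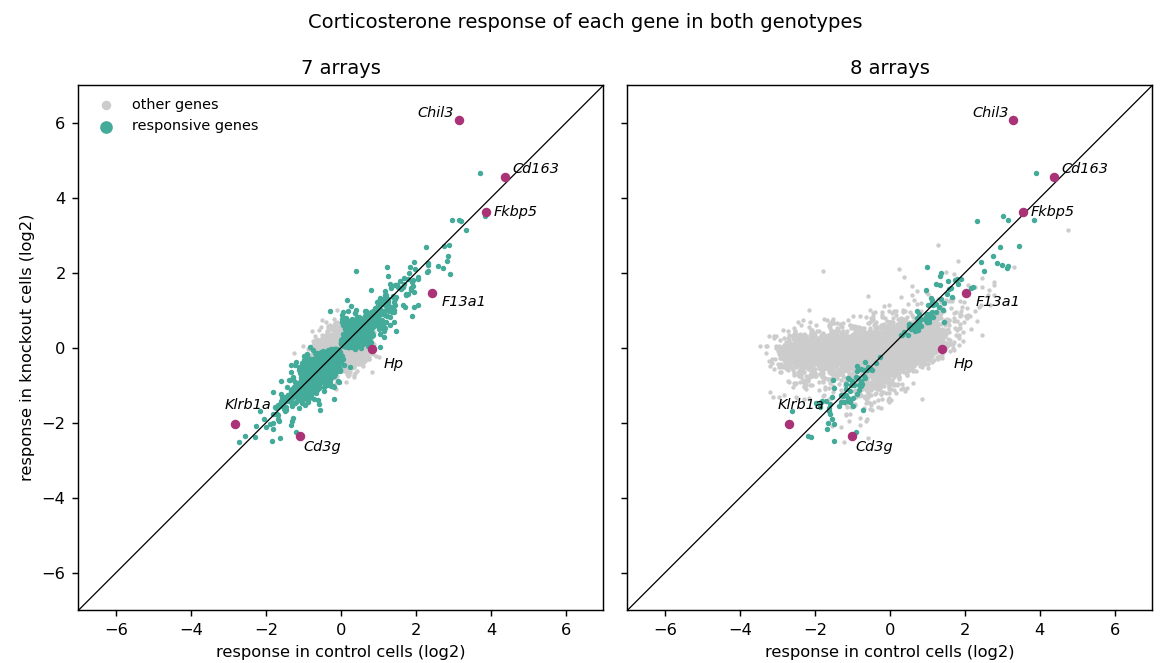
Corticosterone response in log2 units in control cells (x axis) and knockout cells (y axis), 1 point per gene, with 7 arrays (left) and 8 arrays (right); green points are responsive genes, and the line marks equal responses. With 7 arrays the responsive genes lie along the line with Chil3 above it (3.14 and 6.06), while with 8 arrays the cloud is stretched along the control axis.

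Below the threshold, the named rule took the 12 genes of each direction with the smallest p among those with a mean level of at least 6 whose single-array responses did not overlap between genotypes; 34.9% of all genes met the second condition. None of these 24 passed, so their values are descriptions of where the smallest p-values lay. The 12 lower ones had limma adjusted p-values of 0.0879 to 0.476 (7 arrays). All 12 were higher in untreated knockout cells than on control untreated replicate 1, and the difference between genotypes was smaller with hormone in 12 of 12. The response was narrower in knockout cells in 10 of the 12. Control untreated replicate 1 enters the interaction, the untreated difference and the control response alike. These counts thus follow in part from choosing genes by their interaction. With 8 arrays 8 of the 12 had the same sign. The 8-array fit holds the 7 arrays by which these genes were chosen, so a kept sign is no independent support.

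C1qa, a chain of the complement recognition protein C1q, came first among them. It read 11.31 and 8.82 in untreated control cells, 12.38 on both treated control arrays, 11.73 and 11.77 in untreated knockout cells and 12.48 and 12.46 in treated knockout cells. The treated groups of both genotypes nearly met, while untreated knockout cells lay above both untreated control arrays. The response was 1.07 log2 units in control and 0.72 in knockout cells, and the interaction of -0.35 (SE 0.04, limma adjusted p = 0.0879) with 7 arrays and -1.59 with 8 did not pass. Aif1, a calcium-binding protein of activated macrophages, read 8.59 and 8.63 in untreated control cells, 8.90 and 8.77 in treated ones, 9.73 and 9.76 in untreated knockout cells and 9.21 and 9.28 in treated ones. Its replicates were close in all 4 groups, control untreated replicate 2 included, and its change was 0.25 in control cells, which did not pass, and -0.50 in knockout cells, which did. Its interaction was -0.75 with 7 arrays and -0.73 with 8 (limma adjusted p = 0.117 and 0.719).

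Others of the 12 were Egr1, Ccl4 and Cxcl16. Egr1, an immediate early transcription factor, had responses of 1.06 in control and 0.56 in knockout cells and an interaction of -0.50 (limma adjusted p = 0.220). Ccl4, a chemokine that draws monocytes and T cells, had an interaction of -0.47 with 7 arrays and -1.57 with 8, and Cxcl16, a membrane-bound chemokine and scavenger receptor, one of -0.41 and -0.88. Sign and size were not stable for all: Egr1 read 12.61 on control untreated replicate 2 against 9.91 on replicate 1, and its interaction with 8 arrays was 0.85. Atp1b1, the beta subunit of the sodium pump, went from -0.66 to 0.91 and Rhobtb1 from -1.04 to 1.17 with 8 arrays.

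Fpr2, a formyl peptide receptor of phagocytes, read 5.87 and 3.78 in untreated control cells, 5.63 and 5.74 in treated ones, 7.75 and 7.82 in untreated knockout cells and 6.24 and 6.60 in treated ones. It had the largest value of the 12, -1.18 (SE 0.23, limma adjusted p = 0.476) with 7 arrays and -2.23 with 8, with a response of -1.37 in knockout cells and one of -0.19 in control cells that did not pass. Slpi, a secreted leukocyte protease inhibitor, had an interaction of -0.28 with 7 arrays and -0.86 with 8, Lst1, a leukocyte transmembrane protein, -0.41 and -0.86, and the syndecan Sdc4 -0.21 and -0.17. Foxk1, a forkhead transcription factor, had -0.29 with 7 arrays and 0.09 with 8.

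The 12 higher ones had limma adjusted p-values of 0.0879 to 0.804 with 7 arrays, and 9 of 12 kept their sign with 8, which again include those 7. Here too the response was narrower in knockout cells in 10 of 12, since 11 of the 12 had a negative control response. As above, these counts follow in part from choosing genes by their interaction. Bcat1, the cytosolic enzyme that starts breakdown of branched-chain amino acids, read 9.99 and 12.05 in untreated control cells, 9.27 and 9.24 in treated ones, 10.10 and 10.18 in untreated knockout cells and 10.14 and 10.03 in treated ones. It thus fell with hormone on the control arrays alone. Its responses were -0.73 and -0.05 and its interaction 0.68 (SE 0.09, limma adjusted p = 0.0879) with 7 arrays and 1.71 with 8. Me1, the NADPH-producing malic enzyme, had an interaction of 0.79 with 7 arrays and 1.89 with 8, and Trim59 one of 0.83 and 2.36.

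Tns1, the focal adhesion protein tensin, was the one gene of the 12 that rose in control cells. It read 10.00 and 10.12 in untreated control cells, 11.34 and 11.27 in treated ones, 9.68 and 9.61 in untreated knockout cells and 11.33 and 11.34 in treated ones. The treated groups overlapped and the untreated groups did not. Its responses were 1.30 and 1.69, with an interaction of 0.39 with 7 arrays and 0.45 with 8 (limma adjusted p = 0.463 and 0.719). The transcription factors Zeb2 and Tsc22d1 each had an interaction of 0.21 with 7 arrays, and -0.09 and 0.39 with 8. Fuca2, a secreted fucosidase, Rbm28, a nucleolar RNA-binding protein, Uqcrb, a subunit of respiratory complex III, Myl12a, a myosin light chain, Rnf13, a ubiquitin ligase, and Psmb7, a proteasome subunit, lay between 0.15 and 0.34 with 7 arrays and between -0.19 and 0.17 with 8. With 7 arrays, less bright probe sets lay below 0 for Fuca2 (-0.21 and -0.35), Rbm28 (-0.24), Myl12a (-0.24) and Rnf13 (-0.07). Other ones of Rnf13 (0.17 and 0.35) and Uqcrb (0.02) lay above 0.

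Smarca1, a chromatin remodelling ATPase, fell outside the rule by its mean level of 5.17 and was chosen after its values were seen. It read 3.47 and 7.80 in untreated control cells, 3.99 and 3.74 in treated ones, 4.62 and 4.51 in untreated knockout cells and 6.59 and 6.63 in treated ones. Treated knockout cells stood above all but control untreated replicate 2. Its interaction was 1.65 with 7 arrays and 3.82 with 8 (limma adjusted p = 0.155 and 0.719), and did not pass. With 8 arrays the 5 genes of each direction with the smallest p were Chil3, the T cell receptor gene Cd3g and 8 genes with mean levels of 2.50 to 4.06. None of the 10 passed.

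**Figure D3:**
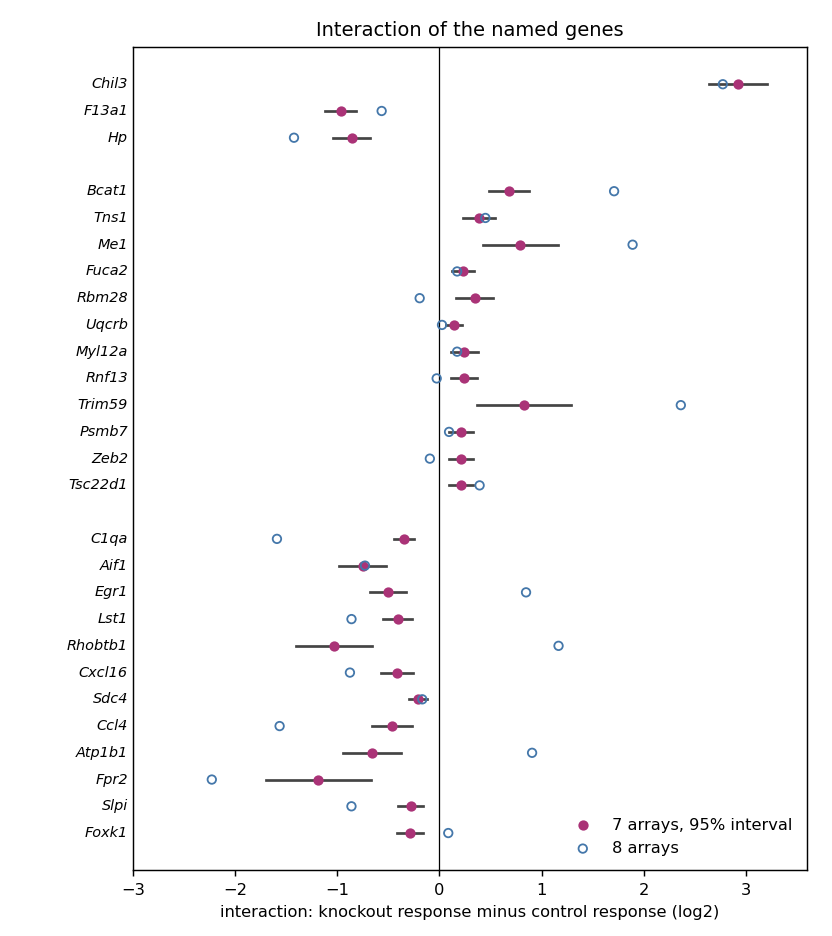
Interaction in log2 units (x axis) of the 3 genes past the threshold (top), the 12 higher (middle) and the 12 lower genes with the smallest p (bottom); filled points with bars are 7-array values with 95% intervals and open points are 8-array values. Chil3 is at 2.92 and 2.78, while Egr1, Atp1b1 and Rhobtb1 change sign between the 2 sets.

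The receptors and the enzymes that handle the hormone had no interaction past the threshold. Nr3c2 had an interaction of -0.25 with 7 arrays and 0.78 with 8 (limma adjusted p = 0.956 and 0.723). Nr3c1 lay between 10.54 and 11.32 on the 8 arrays, with an interaction of -0.055 (SE 0.07) with 7 and -0.40 with 8. Hsd11b1, which regenerates active corticosterone, had 0.05 (SE 0.26) and -0.36. Hsd11b2 was dim, at 3.49 to 4.39, with -0.81 (SE 0.26, limma adjusted p = 0.813) and -0.36. Of the 18 measured genes for receptors, chaperones and prereceptor enzymes, 0 were higher and 3 lower at an unadjusted p under 0.05, against 2.47% and 3.37% of all genes, and their median interaction was 0.03 against -0.01 over all genes.

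Genes known to be induced by glucocorticoids had no interaction past the threshold. Of 39 measured, 37 had a 95% interval within 1 log2 unit of 0, against 92.9% of all genes. At an unadjusted p under 0.05, 3 were higher and 5 lower, against 2.47% and 3.37% of all genes. The median interaction of the 39 was -0.04. Of the 28 responsive members 11 were wider and 17 narrower in knockout cells, against 47.8% wider over all responsive genes. Some responsive members fell with hormone in control and knockout cells: Angptl4 (-0.82 and -0.87), Tsc22d1 (-0.70 and -0.49) and Rgs2 (-0.37 and -0.24) among them. Tsc22d1 and Rgs2 were among the 3 higher ones, so these counts are not counts of larger or smaller induction alone. Tsc22d3, which encodes the anti-inflammatory protein GILZ, read 10.10 and 8.24, then 11.62 on both treated control arrays, and 9.95 and 9.87, then 11.54 on both treated knockout arrays. Its responses were 1.52 and 1.63 and its interaction 0.11 (95% interval -0.03 to 0.25), which turned to -0.82 with 8 arrays and to -0.02 with the mean of its probe sets.

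Fkbp5, the co-chaperone that lowers the receptors' affinity for hormone, read 8.08 and 8.72 in untreated control cells, 11.93 and 11.97 in treated ones, 8.45 on both untreated knockout arrays and 12.07 on both treated ones. It rose by 3.86 log2 units in control against 3.62 in knockout cells. The interaction was -0.24 (SE 0.06, limma adjusted p = 0.804) with 7 arrays and 0.07 with 8, and did not pass. Mt2, a metallothionein that binds zinc, rose by 1.87 and 1.58, with an interaction of -0.29 (limma adjusted p = 0.771) with 7 arrays and -0.58 with 8. The haemoglobin scavenger receptor Cd163, the clock gene Per1 and the arginine-degrading enzyme Arg1 had interactions of 0.17, -0.04 and -0.05 with 7 arrays, and 0.17, -0.59 and -0.73 with 8, on responses of 4.37, 1.66 and 2.75 in control cells; these 3 were chosen after their values were seen.

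Epithelial targets of the mineralocorticoid receptor, a list that shares Fkbp5, Zbtb16, Tsc22d3, Per1, Sgk1 and Lcn2 with the one above, had no member called. Of 18 measured, 1 was higher and 4 lower at an unadjusted p under 0.05, against 2.47% and 3.37% of all genes. Of the 9 responsive ones 2 were wider in knockout cells, against 47.8% of all responsive genes. The median interaction was -0.06 with 7 arrays and -0.02 with 8, where none was at an unadjusted p under 0.05. Of the 4 lower ones, Atp1b1 (0.91), Fkbp5 (0.07) and Zbtb16 (0.49) were above 0 with 8 arrays. Besides Atp1b1 and Fkbp5, Nedd4l, a ubiquitin ligase that removes epithelial sodium channels, had responses of 0.59 in control and 0.37 in knockout cells and an interaction of -0.22 with 7 arrays and -0.23 with 8. Its next brightest probe set had -0.31 with 7 arrays and 1.19 with 8. The remaining Nedd4l probe sets ran from -0.53 to 1.36 with 8 arrays, so the stable value belongs to the brightest one. Over the list the mean level of the 7 arrays was 6.93 in untreated control cells, 7.82 on both treated control arrays, 7.02 and 7.04 in untreated knockout cells and 7.84 and 7.87 in treated ones.

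Among genes of alternative activation the 29 measured held 2 of the 3 called ones, Chil3 and F13a1, and otherwise showed no common direction. At an unadjusted p under 0.05, 3 were higher and 5 lower, against 2.47% and 3.37% of all genes. Of the 21 responsive members 11 were wider and 10 narrower in knockout cells, against 47.8% wider over all responsive genes. Of the 8 chitinase-like genes measured, none but Chil3 was called, and their median interaction was 0.11. Clec10a, a galactose-binding lectin of alternatively activated macrophages, read 10.00 and 8.45 in untreated control cells, 11.90 and 11.82 in treated ones, 10.04 and 10.15 in untreated knockout cells and 11.66 and 11.62 in treated ones. Its interaction was -0.31 (SE 0.07, limma adjusted p = 0.757) with 7 arrays and -1.09 with 8, and did not pass. Fn1, the matrix protein fibronectin, had an interaction of 0.18 with 7 arrays and 0.11 with 8. Retnla and Mrc1, which are markers of this state and were chosen after their values were seen, had -0.24 and 0.06 with 7 arrays and -0.98 and -0.09 with 8.

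Complement and uptake genes were narrower in 11 and wider in 7 of 18 responsive genes, with 2 higher and 7 lower of 27 at an unadjusted p under 0.05; over all genes 2.47% were higher, 3.37% lower and 47.8% of responsive ones wider. With 8 arrays none of the 27 was at an unadjusted p under 0.05. Besides C1qa, Cfp, which stabilises the alternative pathway convertase, had an interaction of -0.24 with 7 arrays and -0.60 with 8, and Cfb, a protease of that pathway, -0.37 and -0.55. Cfb read 8.78 and 8.43, then 8.75 and 8.72 in control cells, and 10.19 and 10.06, then 9.69 and 9.73 in knockout cells, so that the genotypes did not overlap in either condition. Of 24 coagulation and fibrinolysis genes 1 was called, F13a1, and at an unadjusted p under 0.05 there were 1 higher and 4 lower. Of its 12 responsive genes 10 were narrower in knockout cells, and the median change in size over the 12 was -0.04 log2 units.

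Inflammatory mediators had lower interactions at 5 of 35 genes and higher ones at none by the unadjusted p, against 3.37% and 2.47% of all genes. The median over the list was -0.09. The 5 lower ones were Ccl4 and 4 others. Of these, Ccl3, a chemokine, had -0.23 with 7 arrays and -1.02 with 8, and Tlr2, a receptor for bacterial lipoproteins, -0.36 and -1.03. Tlr2 read 9.29 and 7.95, then 9.34 on both treated control arrays, and 10.03 and 10.05, then 9.71 and 9.74 in knockout cells. Of the 17 responsive mediators 10 were wider and 7 narrower, against 47.8% wider over all responsive genes. The sign of the interaction thus did not mean a smaller response. Interferon-stimulated genes had none of 28 with an unadjusted p under 0.05, and neither had 21 cholesterol synthesis genes. Cell cycle genes had 2 higher and 1 lower of 39, and antioxidant genes, metallothionein and zinc transport genes, and matrix and fibrogenic factor genes had 1 and 1 of 20, 0 and 1 of 19, and 2 and 3 of 27.

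**Figure D4:**
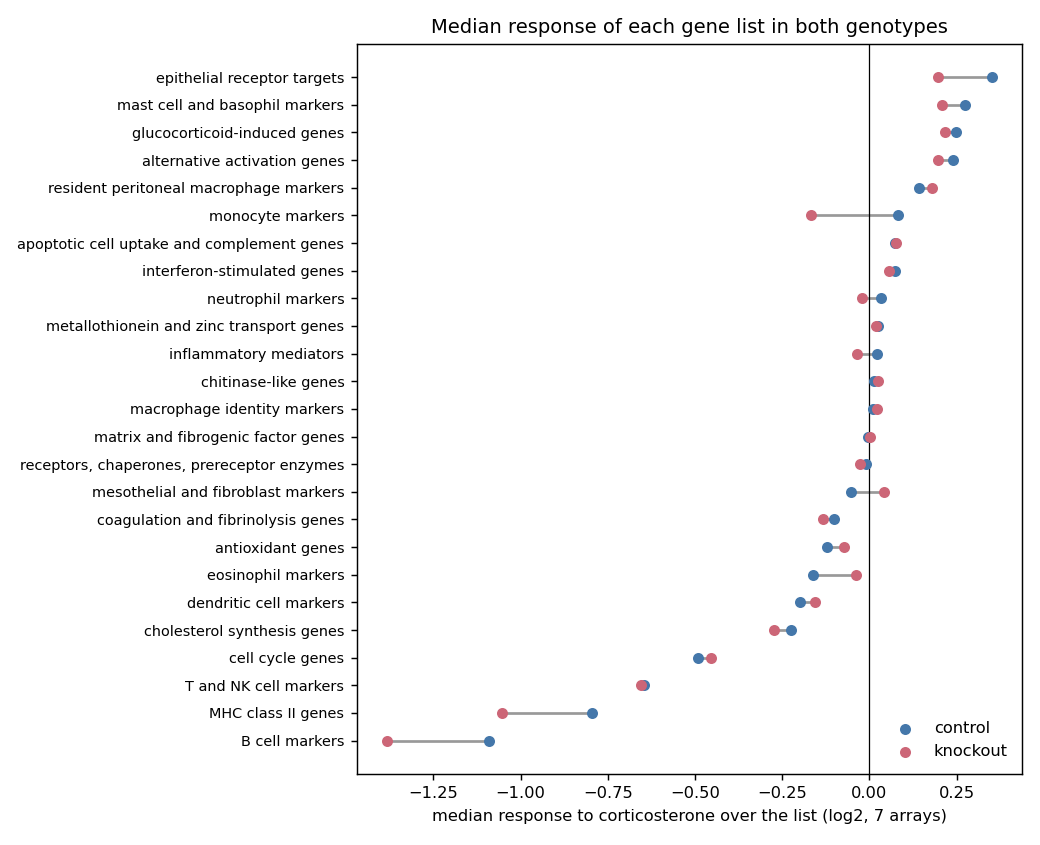
Median response to corticosterone in log2 units (x axis, 7 arrays) in control and knockout cells for each of 25 gene lists (y axis), with a line joining the pair. Points of a pair lie close together for most lists, and the widest gaps are those of lists with negative responses such as B cell markers (-1.09 and -1.38) and MHC class II genes (-0.79 and -1.05), and of monocyte markers (0.08 and -0.17).

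Markers of other cell types are given beside the genes above. The median response in control and knockout cells was -1.09 and -1.38 for B cell markers and -0.65 and -0.66 for T and NK cell markers. It was near 0 for neutrophil markers (0.03 and -0.02) and for mesothelial and fibroblast markers (-0.05 and 0.04). In bulk samples fewer cells of a type and less RNA per cell cannot be told apart. The list of 14 B cell markers averaged 7.65 and 6.93 in untreated control cells, 6.68 and 6.72 in treated ones, 7.94 and 7.87 in untreated knockout cells and 6.69 and 6.73 in treated ones. Treated cells of both genotypes met at one level, while untreated knockout cells lay above both untreated control arrays. Of its 11 responsive genes 10 were wider in knockout cells, against 47.8% of all responsive genes. At an unadjusted p under 0.05, 3 of 14 were lower, against 3.37% of all genes, and none of them with 8 arrays. Ly6d, a surface protein of the B lineage, had an interaction of -0.78 (SE 0.16, limma adjusted p = 0.532) with 7 arrays and -1.82 with 8. Cd79a, part of the B cell receptor, had -0.44 and -0.84, and Ighm, the heavy chain of IgM, -0.49 and -0.36. None passed.

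MHC class II genes, which B cells, dendritic cells and macrophages express, ran the same way. The list of 11 averaged 9.14 and 8.31 in untreated control cells, 8.40 and 8.48 in treated ones, 9.65 on both untreated knockout arrays and 8.72 and 8.73 in treated ones. All 9 responsive members had the larger fall in knockout cells, against 47.8% of all responsive genes with the wider response there. The list median was -0.79 in control and -1.05 in knockout cells. H2-Eb1, a class II beta chain, read 10.15 and 8.33, then 9.35 and 9.34 in control cells, and 11.06 and 11.01, then 9.84 and 9.98 in knockout cells. Its interaction of -0.32 (SE 0.09, limma adjusted p = 0.813) with 7 arrays and -1.23 with 8 did not pass, nor did H2-Ab1 at -0.24 and -0.55 or H2-DMa at -0.24 and -0.65. The part of B cell RNA in these values was not tested. The list of 16 dendritic cell markers had a median interaction of 0.01. Of these, 0 were higher and 1 lower at an unadjusted p under 0.05, against 2.47% and 3.37% of all genes.

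Of 18 T and NK cell markers, 1 was higher and 1 lower at an unadjusted p under 0.05, against 2.47% and 3.37% of all genes. Of the 11 responsive markers 8 were wider, against 47.8% of all responsive genes. Cd3g, a chain of the T cell receptor complex, read 5.39 and 5.24, then 4.33 and 4.27 in control cells, and 6.39 and 6.20, then 4.13 and 3.77 in knockout cells. Its interaction was -1.25 with 7 arrays and -1.33 with 8 (limma adjusted p = 0.532 and 0.719). Klrb1a, a receptor of NK cells, went the other way at 0.77 and 0.65. The 24 mesothelial and fibroblast markers, which averaged 8.81 on control untreated replicate 2 and 6.72 to 7.19 elsewhere, had a median interaction of 0.13 with 7 arrays and 1.43 with 8.

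The 11 monocyte markers hold all 3 called genes, so their mean and counts are in part made of those genes. They averaged 6.63 and 6.78 in untreated control cells, 6.91 and 6.85 in treated ones, 7.18 and 7.22 in untreated knockout cells and 7.46 and 7.37 in treated ones. Without the 3 called genes, a choice made after their values were seen, the other 8 averaged 6.01 and 6.29, then 5.58 and 5.51 in control cells, and 6.48 and 6.57, then 5.94 and 5.81 in knockout cells. Knockout cells lay above control cells in both conditions with and without the 3 genes. The median interaction of the list was -0.33, and -0.21 without them, against -0.01 over all genes. At an unadjusted p under 0.05, 2 of the 11 were higher and 4 lower, against 2.47% and 3.37% of all genes. The interval lay within 1 log2 unit of 0 for 4 of 11, against 92.9% of all genes. The part of monocyte content in the responses of Chil3, F13a1 and Hp was not tested. The list of 16 macrophage identity markers averaged 11.78 on control untreated replicate 2 and 12.22 to 12.42 elsewhere, with 0 higher and 2 lower and a median of 0.02. The 16 resident peritoneal macrophage markers had a median of -0.03. Of their 11 responsive genes 9 were narrower and 2 wider in knockout cells, against 47.8% wider over all responsive genes. Markers of neutrophils (15 measured), eosinophils (7) and mast cells and basophils (12) had medians of -0.07, 0.14 and 0.01, with no member called. With 8 arrays list medians ran from -0.68 for B cell markers to 1.43 for mesothelial and fibroblast markers.

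**Figure D5:**
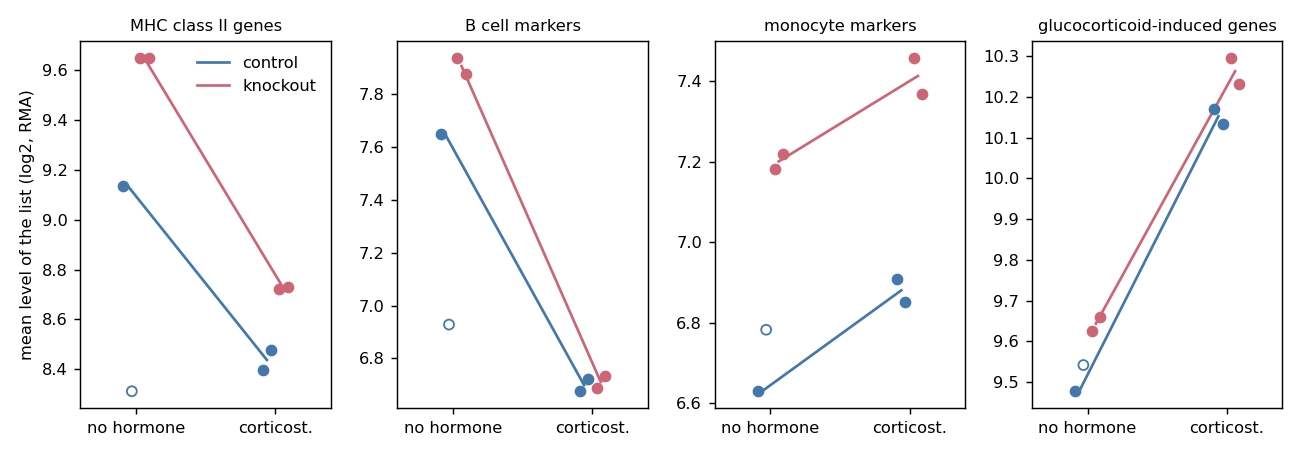
Mean level in log2 units (y axis) of MHC class II genes, B cell markers, monocyte markers and glucocorticoid-induced genes on each array without hormone and with corticosterone (x axis); lines join group values and the open point is control untreated replicate 2, left out of its line. B cell markers start higher in knockout cells (7.94 and 7.87 against 7.65 and 6.93) and end level with control cells, while the lines of glucocorticoid-induced genes run side by side.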

How the data were processed

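The deposited values are log2 levels per probe set and array that the authors made with RMA in R 2.7, per the submitters' processing notes; RMA makes array distributions alike, so a change in total RNA leaves no trace and dim values are compressed. Array medians were 5.55 to 5.58, and the number of arrays limits precision. RNA was labelled with biotin by the Ovation system, per the labels' protocols. Of 45101 probe sets, 34945 had 1 gene in the platform annotation, 932 several, 9160 none named here and 64 were controls; 34741 symbols were updated through the GRCm38.p6 gene table and 204 older ones kept. limma 3.58.1 in R 4.3.3 fitted 4 group means with a variance trend, and p-values were adjusted by Benjamini-Hochberg over 18193 genes. Intervals are 95%. The fit was checked on simulated data in which all arrays varied alike. That check does not cover an array that stands apart, as control untreated replicate 2 does in the 8-array fit. The 8-array fit left 4 residual degrees of freedom and the 7-array fit 3.

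The members, the 25 lists and the tests were chosen with earlier results of these data known. Named genes are those past the threshold, up to 12 per direction with the smallest p with 7 arrays and 5 with 8, the receptor and enzyme genes, and up to 3 per list. Alternatives left out each array, added a replicate block, dropped the variance trend, weighted arrays, averaged probe sets, kept mean levels of at least 6, and centred or quantile normalized arrays.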

Additional observations from a re-analysis of the deposited data

Results flagged for a closer look

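With 7 arrays the difference between genotypes in the hormone response was itself tested and passed for 3 genes: Chil3 (2.92 log2 units, limma adjusted p = 3.4e-05), F13a1 (-0.97, limma adjusted p = 0.0011) and Hp (-0.86, limma adjusted p = 0.0105). The probe set annotated to both Chil3 and Chil4, which is outside the gene table, gave 3.09 (limma adjusted p = 1.7e-05 over all probe sets). No group has enough arrays for a test of single outlying arrays.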

How the results depend on the processing

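With 7 arrays the count of called genes was 2 to 8 when 1 array was left out (8 without knockout untreated replicate 1, 5 without its replicate 2), 0 without the variance trend (1084 genes at an unadjusted limma p under 0.05), 2 with a replicate block and 3 with array weights, the mean of probe sets, mean levels of at least 6, centring or quantile normalization. With 5 arrays, chosen after seeing the data (also without knockout untreated replicate 2 and knockout corticosterone replicate 1), it was 3, of which 2 were shared, and over all probe sets, likewise chosen after seeing the data, 4. The median change in response size was -0.0147 to 0.0126 leaving out 1 array, -0.00827 with the replicate block and -0.0144 with 5 arrays. Hp lost its call with the replicate block (limma adjusted p = 0.0943) and 5 arrays (0.0755). With 8 arrays the count was 0 under every alternative that kept all arrays, and 0 to 10675 leaving out 1, the highest without control untreated replicate 1. The change in size went from -0.753 (without control untreated replicate 1) to 0.0959 (without control corticosterone replicate 2), was -0.0518 with the replicate block and -0.271 with array weights. The causes were not tested. The labels do not tie replicate numbers across groups. Deviations of same-numbered replicates correlated at 0.397 between the untreated groups and at -0.292 to 0.0375 between the other groups, so the fits reported have no replicate block.

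Among named genes the sign of the 7-array interaction turned with 8 arrays for Atp1b1 (0.91), Egr1 (0.85), F2rl2 (-0.014), Fkbp5 (0.074), Foxk1 (0.086), Hmgcs1 (0.075), Hsd11b1 (-0.36), Lss (0.093), Lyz2 (0.065), Mmp8 (-0.14), Nr3c2 (0.78), Plat (0.29), Rbm28 (-0.19), Rhobtb1 (1.17), Rnf13 (-0.027), S100a9 (1.45), Tgfb2 (0.73), Tsc22d3 (-0.82), Vsig4 (-0.31) and Zeb2 (-0.094). With the mean of probe sets it turned for Fuca2 (-0.11), Hmgcs1 (0.0040), Nr3c1 (0.18) and Tsc22d3 (-0.023), and with 5 arrays for Nr3c2 (0.068). Leaving out 1 of the 7 arrays gave -0.18 to 0.28 for Hsd11b1 and -0.018 to 0.0063 for Lyz2.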
